A study of Mus musculus with 4 samples.

Results

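Open promoters were taken here as the peaks of accessible chromatin in control facial surface ectoderm that were centred at most 1000 bp from where a protein-coding gene on chromosomes 1 to 19 starts. Of 65467 control peaks in all, 63926 lay on these autosomes and 12742 of them, 19.9%, met the rule. They served 13362 of 20722 autosomal protein-coding genes. The open promoters were then divided into 128 that overlapped an AP-2-dependent region by at least 1 bp and 12614 that did not. An AP-2-dependent region is an interval in which accessibility was called higher in controls than in mutants. The 128 promoters held 134 such regions.

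Accessibility was measured by ATAC-seq, in which a transposase cuts exposed DNA and the cut fragments are sequenced. Surface ectoderm was peeled from the facial prominences of mouse embryos at embryonic day 11.5 after Dispase II digestion and pooled, and 2 libraries were made for each genotype. By the study's methods, controls were Tfap2a flox/+; Tfap2b flox/+ littermates without the Crect transgene. Mutants, named EDKO, were Crect; Tfap2a flox/flox; Tfap2b flox/flox, so that AP-2α and AP-2β were both targeted by a Cre recombinase under an intronic enhancer of Tfap2a, active in the embryonic ectoderm. All groups therefore carried floxed alleles of both genes, and Crect was present in the mutants only. Both libraries of a genotype had been combined before the intervals were called. The EDKO libraries served as the background of the region calls, and peaks of the EDKO ectoderm itself were not analysed here. Each promoter thus has 1 value, no spread between libraries can be given and no p-value between genotypes was computed. Intervals in brackets are 95% intervals (Wilson for shares, order statistics for medians). They cover counting error over peaks or genes only.

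A gene's promoter is the stretch around its start site where nucleosomes are displaced and RNA polymerase is loaded. In mammals most promoters of widely used genes lie in CpG islands, runs of GC-rich DNA that have kept their CpG dinucleotides, whereas many tissue-restricted genes start in CpG-poor DNA. The AP-2 proteins bind GC-rich palindromes and are regulators of surface ectoderm, epidermis and neural crest.

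The sequences below show what the AP-2-dependent part of a promoter looks like. Each is 81 bases of GRCm38, read 5′ to 3′ on the strand of the gene, and all but the histone window are free of annotated exons. The first set was chosen after the values were seen and includes promoters of genes with known roles in epithelia or embryonic patterning. Each window is centred on the AP-2 string nearest to the summit of the region. Capitals mark matches of GCCNNNGGC or of a more degenerate 9-base AP-2 string (its first and last letters G or C, then CC, C or T, any base, A or G, GG in between), searched on both strands. Many matches of one string are also matches of the other.
Krt5, chr15:101712961-101713041, minus strand: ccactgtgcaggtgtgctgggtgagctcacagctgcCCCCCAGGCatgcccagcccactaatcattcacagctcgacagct
Krt15, chr11:100136122-100136202, minus strand: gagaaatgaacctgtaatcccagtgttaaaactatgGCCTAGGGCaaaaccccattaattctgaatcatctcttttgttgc
Frem2, chr3:53658107-53658187, minus strand: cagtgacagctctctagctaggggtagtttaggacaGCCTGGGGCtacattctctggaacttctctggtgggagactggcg
Lmna, chr3:88503431-88503511, minus strand: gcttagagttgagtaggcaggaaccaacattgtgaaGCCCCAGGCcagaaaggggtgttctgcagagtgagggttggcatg
Tlx1, chr19:45150213-45150293, plus strand: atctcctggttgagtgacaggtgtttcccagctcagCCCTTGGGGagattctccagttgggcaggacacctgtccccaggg
Otx1, chr11:22002035-22002115, minus strand: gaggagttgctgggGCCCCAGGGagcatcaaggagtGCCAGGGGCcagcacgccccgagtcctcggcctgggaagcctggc
Abca13, chr11:9191319-9191399, plus strand: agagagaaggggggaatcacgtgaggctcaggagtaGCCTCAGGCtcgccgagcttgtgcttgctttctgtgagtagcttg
Not every AP-2-dependent region held such a string. The windows below are centred on the summits of 3 regions that had no match of GCCNNNGGC or of the degenerate string within the printed bases. They lay upstream of genes for a basal keratin, a tight junction claudin and a secreted antagonist of BMP and WNT signals.
Krt14, chr11:100208719-100208799, minus strand: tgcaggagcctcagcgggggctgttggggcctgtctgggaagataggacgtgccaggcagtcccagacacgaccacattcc
Cldn8, chr16:88563520-88563600, minus strand: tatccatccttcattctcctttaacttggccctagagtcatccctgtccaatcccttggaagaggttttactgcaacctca
Sostdc1, chr12:36313604-36313684, plus strand: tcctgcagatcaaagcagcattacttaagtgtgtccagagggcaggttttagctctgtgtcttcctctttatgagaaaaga
A last set shows sequence that was repeated, either elsewhere in the genome or within itself. The first window lies upstream of Gm13289, a gene of the interferon-zeta cluster on chromosome 4, and the identical 81 bases were found in 12 of the 13 promoter peaks of that cluster that overlapped a region. The second lies in the coding exon of Hist1h2bg, and the window in Hist1h2bk has the same letters. The third, between B3galt6 and Sdf4, is a tandem repeat in which 98.1% of bases equal the base 27 positions further on.
Gm13289, chr4:88776777-88776857, plus strand: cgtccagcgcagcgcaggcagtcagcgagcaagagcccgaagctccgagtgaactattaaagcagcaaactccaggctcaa
Hist1h2ae and Hist1h2bg, chr13:23571571-23571651, plus strand: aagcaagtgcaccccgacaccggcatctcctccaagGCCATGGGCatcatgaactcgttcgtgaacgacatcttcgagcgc
B3galt6 and Sdf4, chr4:155992688-155992768, minus strand: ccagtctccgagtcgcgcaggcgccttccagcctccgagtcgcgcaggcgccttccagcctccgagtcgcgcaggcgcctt
Most of the open promoters were CpG-rich. A start site was called high CpG when the 500 bp around it had a CpG ratio, observed over expected, above 0.75 and a GC content above 55%, and low CpG when the ratio was below 0.48. Peaks, where their class is given below, were classed by the same limits in the 500 bp around the control summit. Of 7364 genes with a high-CpG start site, 7242 had an open promoter, 98.3% (98.0 to 98.6). The share was 89.7% (88.9 to 90.6) of 4867 genes with an intermediate start site. Among 8491 genes with a low-CpG start site, 1752 were open, 20.6% (19.8 to 21.5). Over all autosomal protein-coding genes the share was 64.5%.

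Genes that every cell uses were nearly all open. Open promoters were found for 75 of 77 cytosolic ribosomal protein genes, 77 of 78 mitochondrial ribosomal protein genes, 36 of 38 proteasome subunit genes and 33 of 34 genes for subunits of respiratory complex I. Of these promoters, 0 overlapped an AP-2-dependent region. The share was 0.714% over all autosomal protein-coding genes and 1.00% over open promoter peaks, so that few or none would be counted at either share. At the other end, 6 of 1086 olfactory receptor genes, 1 of 326 vomeronasal receptor genes, 2 of 57 keratin-associated protein genes and 1 of 64 defensin genes had an open promoter. The vomeronasal receptor gene, Vmn1r4, shared its peak with the start site of Nt5c3.

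Marker genes gave a check of the labelled tissue. Of 15 surface ectoderm markers, 14 had an open promoter. Their summit values, given as −log10 p of the control signal at the tallest point of the peak, were lowest at Krt8, with 6.77. The median of 9.98 was close to that of all open promoters, 9.30. Cdh1, which encodes E-cadherin, reached 11.70, Grhl2 12.08 and Trp63, the p63 gene of stratified epithelia, 8.50. The 15th marker, Grhl3, had its start site inside a 6023 bp control peak whose centre lay further than 1000 bp away, so it did not count as a member.

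Promoters of other cell types were in part open too. Of 11 facial mesenchyme markers, 10 had an open promoter, with a median summit value of 5.66. Taking the stronger peak where a gene had more than 1, Prrx1 stood at 3.78, Twist2 at 4.81 and Alx1 at 5.62, whereas Pdgfra, the receptor for PDGF-A, stood at 10.08 and Col1a1 at 7.96. Endothelial markers were open at 2 of 8 genes, Kdr with 9.01 and Sox17 with 4.48, and muscle markers at 1 of 4. Neuronal markers were open at 5 of 8, from 4.06 at Neurod1 to 8.38 at Tubb3 and 9.15 at Snap25. Isl2, another neuronal marker, was not counted, as Grhl3 was not. Its start site lay inside a 7016 bp control peak with a summit value of 10.94, centred too far away. Several of these values were above that of Krt8 in the ectoderm list. None of the 5 blood markers on the autosomes had one (upper bound 43.4%). Start sites of low CpG content are found at 7 of the 8 endothelial markers, 4 of 4 muscle markers and 5 of 5 blood markers. Chromatin from a few mesenchymal cells and weakly open promoters in ectodermal cells cannot be told apart in pooled tissue.

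**Figure D1:**
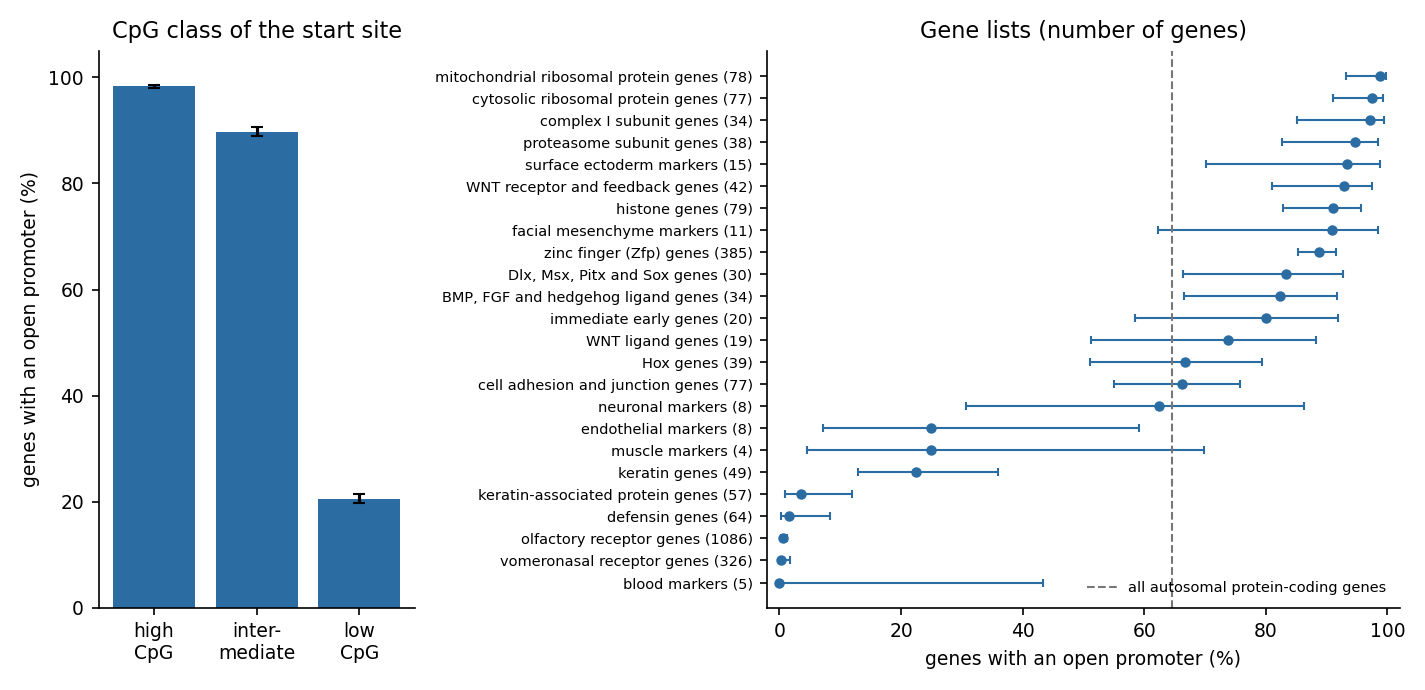
Share of autosomal protein-coding genes with an open promoter, by CpG class of the start site (bars, left) and by gene list (points, right, number of genes in brackets). Error bars are 95% Wilson intervals and the dashed line marks 64.5%, the share over all genes. High-CpG genes reach 98.3%, low-CpG genes 20.6%, and olfactory receptor genes lie near 0.

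Open promoters were wide, and their summits lay near the start site. The median width was 1331 bp (1315 to 1345), against 467 bp (463 to 470) for the 44799 control peaks more than 5 kb from a start site. The interval held the start site in 11728 of 12742 cases, 92.0%. The summit lay a median of 14 bp upstream of the start site, and 52.0% of summits were within 100 bp of it. In 1006 peaks there were exactly 2 start sites within 1000 bp, and in 714 of these the genes were divergent, with a median gap of 173.5 bp between start sites. The letters of a GC box, GGGCGG, were present within 100 bp of the summit in 61.1% of open promoters and 12.1% of distal peaks. The ETS letters CCGGAAG were present in 13.2% and 1.79%, and the CTCF string, searched by its consensus, in 1.50% and 7.35%.

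At the edge of the rule, the peaks just inside were one at Ccbe1, whose centre lay 999.5 bp from the start site with a summit value of 12.02, and one at Shc2 at 996.5 bp with 5.38. The nearest outside were peaks at Tgfb1 and Gm20441, both at 1001 bp, with 7.48 and 4.82. None of these 4 overlapped a region.

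Among single-copy promoters without a region, the highest summit value was that of Dnpep, an aspartyl aminopeptidase gene, at 16.34. Xpo1, encoding a nuclear export receptor, followed with 16.21, then the peak shared by Izumo4 and Mob3a with 16.18 and Kat6b, a histone acetyltransferase gene, with 16.10. The next 6 were Rab40c, Rps6ka5, Pja2, Mtmr4, Hsd17b12 and Cic, from 16.00 down to 15.73. Of these 10 promoters, 6 were high CpG and 4 intermediate.

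The comparison with the EDKO libraries asked at which open promoters accessibility depended on AP-2α and AP-2β. Of 12742 open promoters, 128 overlapped an AP-2-dependent region, 1.00% (0.846 to 1.19). Over all control peaks on the autosomes the share was 4.51%. It was 2.66% (2.30 to 3.09) for peaks between 1 and 5 kb from a start site and 5.77% (5.56 to 5.99) for peaks further away. Open promoters cover more sequence per peak, so the difference was larger per base. They held 7.28 regions per Mb of peak, against 99.9 per Mb in the distal peaks.

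The 128 promoters fell into 3 groups that differed in several measured properties. In 83 promoters with 85 regions the sequence was single copy, meaning that the 31-base words of the peak occurred in the reference a median of fewer than 2 times, and no start site belonged to a replication-dependent histone gene. A further 14 promoters with 17 regions belonged to histone genes, and 31 promoters with 32 regions had 2 or more copies. The shares with a region were 0.667% (0.538 to 0.825) of 12452 single-copy promoters, 33.3% (21.0 to 48.4) of 42 histone promoters and 12.5% (8.95 to 17.2) of 248 promoters with 2 or more copies. Reads had been allowed up to 10 alignments each, so in repeated sequence an interval cannot be tied to 1 copy. The part of read placement in these calls was not tested.

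**Figure D2:**
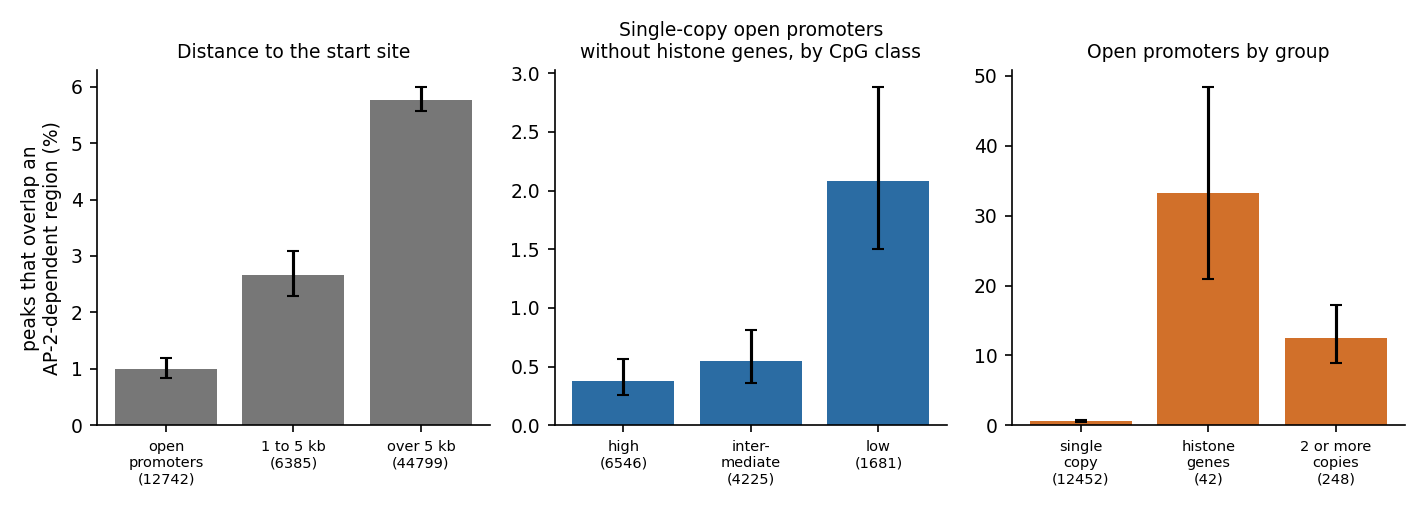
Share of peaks that overlap an AP-2-dependent region, with 95% Wilson intervals and the number of peaks in brackets; the vertical scales differ between panels. Left, open promoters stand at 1.00% and distal peaks at 5.77%. Middle, single-copy promoters rise from 0.382% at high CpG to 2.08% at low CpG. Right, histone promoters reach 33.3%.

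Among the single-copy promoters, those poor in CpG overlapped a region most often. The share was 0.382% (0.259 to 0.563) of 6546 high-CpG promoters and 0.544% (0.363 to 0.816) of 4225 intermediate ones. In low-CpG promoters it was 2.08% (1.50 to 2.88) of 1681, and the interval did not overlap those of the other classes. Low-CpG distal peaks, with 6.26%, stood above all of these. The median CpG ratio was 0.620 (0.447 to 0.688) in the 83 promoters with a region and 0.776 (0.772 to 0.781) in the 12369 without.

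Promoters with a region were also stronger and wider in controls. The median width was 1949 bp (1789 to 2320) in the 83 and 1334 bp (1319 to 1347) in the 12369. The median summit value was 10.4 (9.69 to 11.2) against 9.31 (9.23 to 9.38). Over all 12742 open promoters the share with a region was 0.314% in the weakest quartile of summit value, 0.691% and 0.879% in the middle quartiles, and 2.13% (1.69 to 2.70) in the strongest. Histone promoters and those of 2 or more copies made up much of the last value. Within the same quartiles, the single-copy promoters without histone genes had 0.261% (0.132 to 0.515), 0.638%, 0.797% and 0.962% (0.675 to 1.37). The same control libraries entered the peak list and the region list, so control strength is not independent of the calls, and a wider peak offers more sequence to overlap.

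The regions filled a small part of these promoters. In the single-copy group a region was a median of 293 bp wide and filled a median of 16.7% of its promoter peak, from 4.33% at Carm1 to 100% at Epgn and Olfr1238. Of 85 region summits, 9 lay within 100 bp of the start site and 21 more than 1000 bp from it. The median distance between the region summit and the control summit of the same peak was 128 bp, and 28 of 85 summits lay within 50 bp. In 33 cases the region summit was between genes, in 35 in an intron, in 17 in an untranslated or other exon and in 0 of 85 in a coding exon (upper bound 4.32%). In the promoters with 2 or more copies, by contrast, the region filled a median of 26.0% and 28 of 32 region summits lay within 50 bp of the control summit.

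**Figure D3:**
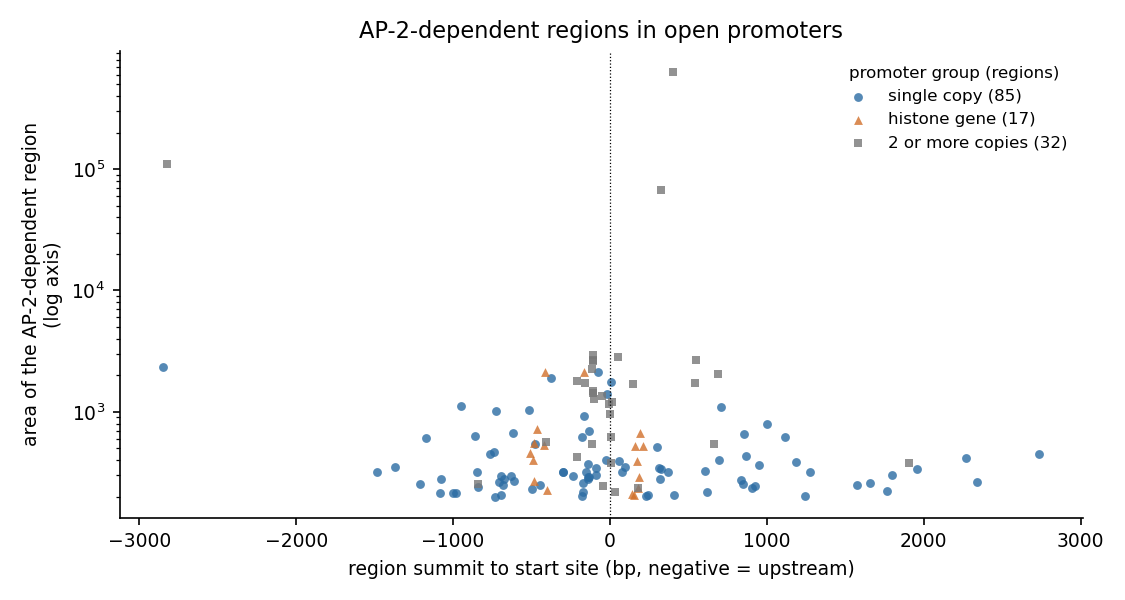
Position and size of the 134 AP-2-dependent regions in open promoters. The horizontal axis gives the distance of the region summit from the start site nearest to the centre of the peak in bp, the vertical axis the area of the region on a log scale. Single-copy regions spread from −2846 to 2735 bp with areas of 200 to 2347, histone regions lie between −511 and 209 bp, and 3 regions in repeated sequence lie at 67318 and above.

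The region with the largest area in the single-copy group lay 2846 bp upstream of the start site of Efna1, which encodes the ephrin-A1 ligand. Its area, the −log10 p above the calling threshold summed over the region, was 2347. The region covered 10.2% of a 6226 bp promoter peak. Cldn8, encoding a tight junction claudin, had an area of 1893 at 377 bp upstream, in a promoter with a CpG ratio of 0.08. Pkp3, encoding the desmosomal protein plakophilin-3, had an area of 674 at 621 bp upstream, in a 2738 bp peak. Of 77 cell adhesion and junction genes, these last 2 were those whose open promoter overlapped a region, 2.60%. Over all autosomal protein-coding genes the share was 0.714%, and a count of 2 is too small for a result about the list.

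Keratins are the intermediate filament proteins of epithelia, and few of their promoters were open at this stage. Of 49 keratin genes, 11 had an open promoter and 3 of these, Krt5, Krt14 and Krt15, overlapped a region, all in low-CpG sequence. The 3 were 6.12% of the list, against 0.714% of all autosomal protein-coding genes. Krt5 and Krt14 encode the partner keratins of basal epidermal cells. The Krt5 region had an area of 219 and lay 171 bp upstream of the start site, with the AP-2 string shown above at 103 bp upstream. The Krt14 region had an area of 252 at 1211 bp upstream and held no match of either AP-2 string. The Krt15 region had an area of 317 at 301 bp upstream and held both strings in the same 9 bases, 234 bp upstream. All 3 areas were below 318, the median of the group. Krt8, Krt18 and Krt19, which mark simple epithelia, had open promoters without a region.

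Among the other single-copy promoters with large regions, Gpx1, which encodes glutathione peroxidase, had an area of 1411 with its summit 18 bp upstream of the start site, and its region held 2 matches of GCCNNNGGC. The promoter between B3galt6 and Sdf4 had 2143 at 79 bp, in the tandem repeat printed above. Desi2 had 1745 at 9 bp downstream, the peak at Hras and Lrrc56 had 1111 at 949 bp upstream of Lrrc56, and Atpif1, encoding an inhibitor of the mitochondrial ATP synthase, had 1103 at 708 bp downstream. Areas of 1038, 1020, 925 and 799 were found at Abca13, Prag1, Defb11 and Morf4l1. Of these 4, Abca13 and Morf4l1 had an AP-2 string in the region. The defensin gene Defb11 and the olfactory receptor gene Olfr1238 were the members of their lists with a region. At Olfr1238 the region coincided with the whole 285 bp peak.

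The genes in this paragraph were named after their values were seen, apart from Hoxc13, which belongs to a list. Frem2, encoding a basement membrane protein, had an area of 637 at 858 bp upstream with a match of both strings. Tlx1, a homeobox gene, had 539 at 477 bp upstream with 3 degenerate matches in the region. Otx1 had 251 at 446 bp upstream, in a promoter with a GC content of 74.8%. Lmna, encoding the nuclear lamins A and C, had 291 at 136 bp upstream, and the AP-2 string lay at the summit. Hoxc13, which acts in hair and nail formation, had 363 at 948 bp downstream and was the 1 Hox gene of 39 with a region at its promoter. That is 2.56% of the list, against 0.714% of all autosomal protein-coding genes, and a count of 1 is no result about the list. The negative feedback genes Dusp6 and Dusp7, which encode phosphatases of ERK, had 301 and 452 at 1800 and 2735 bp downstream. Smad3, a transducer of TGF-β, had 349 at 1367 bp upstream. Epgn, encoding the EGF family ligand epigen, had 257, and its 383 bp peak with a summit value of 3.96 was covered entirely.

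The AP-2 genes themselves had open promoters at 4 of 5 loci, and none overlapped a region. At the background of 0.714% of all genes, or 1.00% of open promoter peaks, that count is no result about these genes. Summit values were 11.57 at Tfap2c, 11.19 at Tfap2a, 7.51 at Tfap2e and 5.98 at Tfap2b. Tfap2d had none. The strongest of these were the CpG-rich promoters of Tfap2a and Tfap2c, with peaks of 4640 and 3526 bp. Open chromatin at these promoters gives no check of recombination.

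WNT genes were described by the same rule. Of 19 WNT ligand genes, 14 had an open promoter and 0 of them overlapped a region. At the background of 0.714% of genes, or 1.00% of open promoter peaks, that is no result about the list. The highest summit values were 12.58 at Wnt6 and 12.20 at Wnt9b, both expressed in surface ectoderm, and the lowest was 5.60 at Wnt1. Of 42 genes for WNT receptors, antagonists and feedback factors, 39 were open and 1, Sostdc1, overlapped a region. That region had an area of 231 and a summit value of 3.72 and lay 495 bp upstream of the start site, in low-CpG sequence without an AP-2 string.

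The count of WNT ligands depended on the centre rule. The start sites of Wnt3, Wnt10a and Wnt10b lay inside control peaks of 4293, 4978 and 3629 bp whose centres were more than 1000 bp away, so these genes were not counted as having an open promoter. All 3 peaks overlapped AP-2-dependent regions, 2 at Wnt3 and 1 each at Wnt10a and Wnt10b. In all, 213 of the 7360 genes without an open promoter had their start site inside such a peak. They occupied 197 peaks with a median width of 3816 bp, of which 14 overlapped a region, 7.11% (4.28 to 11.6). Over all control peaks on the autosomes the share was 4.51%, within that interval. The 197 were also wider than open promoters, with their median of 1331 bp, and so offered more sequence to overlap. The other genes in these 14 peaks included Gli2, a transducer of hedgehog signals, Id3, Lfng, a modifier of Notch, and Ajuba. Map3k12 and Gm10722 lay in the peaks already counted as open promoters of Tarbp2 and Gm11168, and 7 predicted genes next to Gm11168 on chromosome 9 shared 1 peak of 32868 bp with 16 regions. Axin2, Sox9, Bmp7, Egr1 and Grhl3 were in wide peaks of this kind without a region. All genes in this paragraph were named after their values were seen.

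In 3 lists of other signalling, patterning and response genes, 0 members had a region, against 0.714% of all genes, a share at which lists of this size hold few or none. Of 30 Dlx, Msx, Pitx and Sox genes, 25 had an open promoter, with summit values up to 13.03 at Sox12 and 12.93 at Sox11. Of 34 genes in the BMP, FGF and hedgehog ligand list, 28 were open, among them Bmp4 at 6.43, Fgf8 at 5.88 and Shh at 6.33. That list was drawn by gene name and also took in Bmp1, a protease, and Bmp2k, a kinase. Of 20 immediate early genes, 16 were open with a median summit value of 11.7, and the start sites of Egr1, Egr3 and Atf3 lay in the wide peaks described above.

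The degenerate AP-2 string was more frequent at the summits of the single-copy regions than at control summits without a region, whereas for GCCNNNGGC the intervals overlapped. Within 100 bp of the control summit, GCCNNNGGC was present in 21.7% (14.2 to 31.7) of the 83 single-copy promoters with a region and in 22.4% (21.7 to 23.2) of the 12369 without. At the 85 region summits the share was 23.5% (15.8 to 33.6). The degenerate string was present in 32.5% (23.4 to 43.2) and 19.6% (18.9 to 20.3) at the control summits, and in 54.1% (43.6 to 64.3) at the region summits. Over all open promoters, repeated and histone ones included, the excess at control summits was seen at low CpG only. There the shares were 46.2% (31.6 to 61.4) with a region and 21.1% (19.2 to 23.0) without. They were 16.0% (8.34 to 28.5) and 18.9% at intermediate CpG, and 5.13% (1.42 to 16.9) and 19.8% at high CpG. At the 2876 AP-2-dependent regions outside open promoters, the degenerate string was found in 50.3% (48.5 to 52.1). A match is a description of the sequence, and the degenerate string was within 100 bp of 14.9% of all 20722 start sites.

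Within the same promoter peaks, matches were denser inside the region than beside it. The 83 single-copy promoters held 66 degenerate matches in 27.3 kb of region, 2.42 per kb, and 132 in the remaining 155.9 kb, 0.847 per kb. In the promoters without a region the density was 1.08 per kb. The difference was present in each CpG class, with 2.30 against 0.885 per kb in high-CpG, 2.40 against 0.961 in intermediate and 2.51 against 0.621 in low-CpG promoters. For GCCNNNGGC it was smaller, 1.21 against 0.866 per kb. No test was made of these densities, since the matches in a promoter are not independent.

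**Figure D4:**
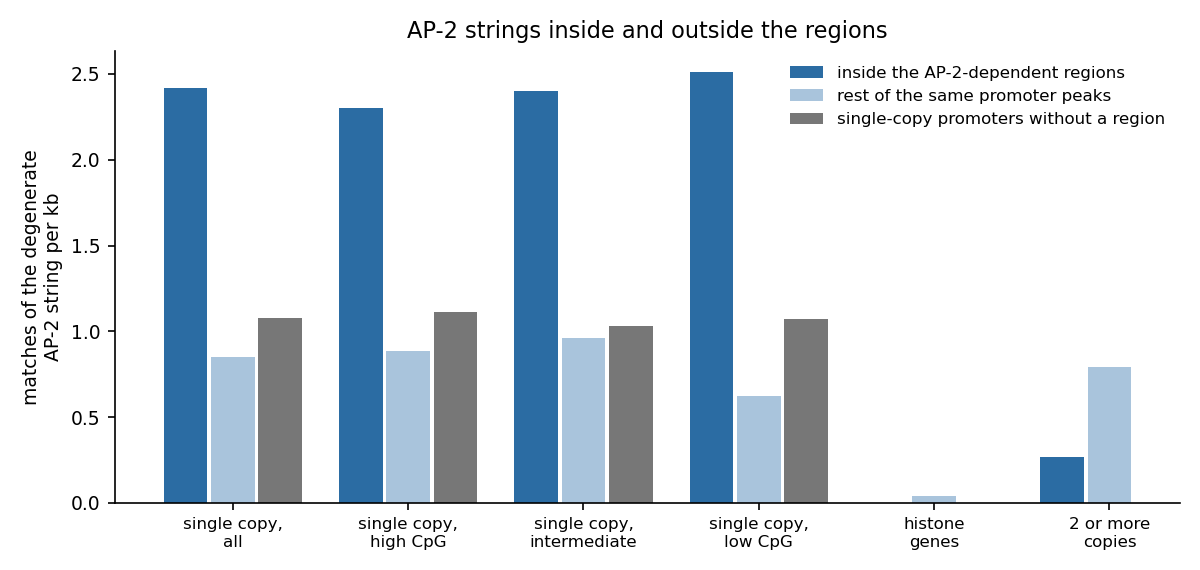
Matches of the degenerate AP-2 string per kb, inside the AP-2-dependent regions (dark), in the rest of the same promoter peaks (light) and in single-copy promoters without a region (grey, shown for the single-copy classes). Single-copy regions hold 2.42 matches per kb against 0.847 beside them, and the regions of histone promoters hold 0.

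Other strings near the control summit were compared between the single-copy promoters with and without a region. The GC box was present in 49.4% (38.9 to 59.9) and 61.9% (61.0 to 62.7). The TEAD letters GGAATG were present in 14.5% (8.47 to 23.6) and 7.49% (7.04 to 7.97). The p53 family string, searched by the core letters of a full site, was present in 9.64% (4.97 to 17.9) and 2.85% (2.57 to 3.16). In distal control peaks these 2 shares were 21.0% and 10.4%. The NRF1 letters GCATGCGC were found in 0 of 83 (upper bound 4.42%) and in 4.12%, within that bound. CCAAT, with 26.5% (18.2 to 36.9) and 30.2%, did not differ beyond its interval. TEAD proteins are the DNA-binding partners of YAP, and p63 is the p53 family member of the epidermis. Base composition differed between these sets of promoters, as described above. Over all open promoters, repeated and histone ones included, the GC box was in 74.4% with and 72.0% without a region at high CpG. It was in 38.0% and 59.0% at intermediate and 15.4% and 27.3% at low CpG. TEAD shares were lower with a region at high CpG, 2.56% and 5.09%, and at intermediate CpG. At low CpG they were 20.5% (10.8 to 35.5) and 14.4%. The p53 family share was higher with a region at high and low CpG and lower at intermediate CpG. The part of base composition in the single-copy shares was not tested.

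Replication-dependent histone genes supply histones in S phase and lie in clusters as closely spaced pairs. Their promoters were the list with the most regions. Of 79 histone genes of all kinds, 72 had an open promoter and 27, 34.2%, had one that overlapped a region. By family, 11 of 18 H2A genes, 9 of 18 H2B genes, 4 of 12 H3 genes, 3 of 13 H4 genes and 0 of 6 H1 genes did. Of 54 genes of the Hist1 cluster, 25 did, and their 16 regions lay between 21715931 and 23757380 on chromosome 13. The areas ran from 207 at Hist1h3i to 2133 at the peak of Hist1h2ap, Hist1h2br and Hist1h4n. The single-copy examples with the largest areas were the pair Hist1h2ad and Hist1h2bf with 728 and the pair Hist1h2ai and Hist1h2bl with 667.

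In histone promoters most region summits lay in coding sequence. Of 17 region summits, 14 fell in a coding exon, 8 in H2A genes, 4 in H2B genes, 1 in an H3 gene and 1 in an H4 gene, between 122 and 314 bp from the nearest of all start sites. The count within 100 bp of a start site was 0 of 17. In the pair Hist1h2ah and Hist1h2bk, the peak held a region of area 461 in the H2A coding exon and another of 392 in the H2B coding exon. The degenerate AP-2 string was present in 0 of 17 regions (upper bound 18.4%) and GCCNNNGGC in 7. Histone genes of a family are near-identical over their coding sequence, and reads there could be shared between genes, so values of single histone genes are uncertain.

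Promoters with 2 or more copies held the regions of largest area. Gm10800 and Gm10801 on chromosome 2 had areas of 631633 and 67318 and summit values of 1342.22 and 156.04 in the region list. Gm11168 on chromosome 9 had 109285 over 4900 bp. No other open promoter had a region of area above 2912. In the interferon-zeta cluster, 13 promoters overlapped regions that lay between 88760659 and 88806316 on chromosome 4 and had areas of 545 to 2912. Their sequence had a median of 14 copies, and the control summit values were alike, from 12.44 to 14.39. On chromosome 17, 4 promoters with 3 copies, at Phf10, at Ermard and Tcte3, and at Gm3417 and Gm3435, had areas of 564 to 1801. On chromosome 14, Slc25a37 and Gm16867, with 2 copies, had 1161 and 617, and Synb, an envelope-derived fusion protein gene, had 236. The degenerate AP-2 string was found near 1 of these 32 region summits, 3.12% (0.554 to 15.7).

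Genes with a region at the promoter more often had another nearby. A further AP-2-dependent region within 100 kb of the start site, outside the gene's own promoter peak, was found for 54.7% (46.7 to 62.5) of 148 genes whose promoter held a region and 23.2% (22.5 to 23.9) of 13214 genes whose promoter did not. The histone and interferon clusters, where neighbouring promoters hold regions, contributed to this. Without them and other promoters of 2 or more copies, the shares were 33.3% (24.3 to 43.8) of 87 genes and 23.1% (22.3 to 23.8) of 12969. The bounds of 24.3 and 23.8 lie close together, and the intervals treat genes as independent. The 87 genes lay at 83 promoter peaks, and some, such as Krt14 and Krt15, lay within 100 kb of each other. No conclusion is drawn from the difference.

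**Figure D5:**
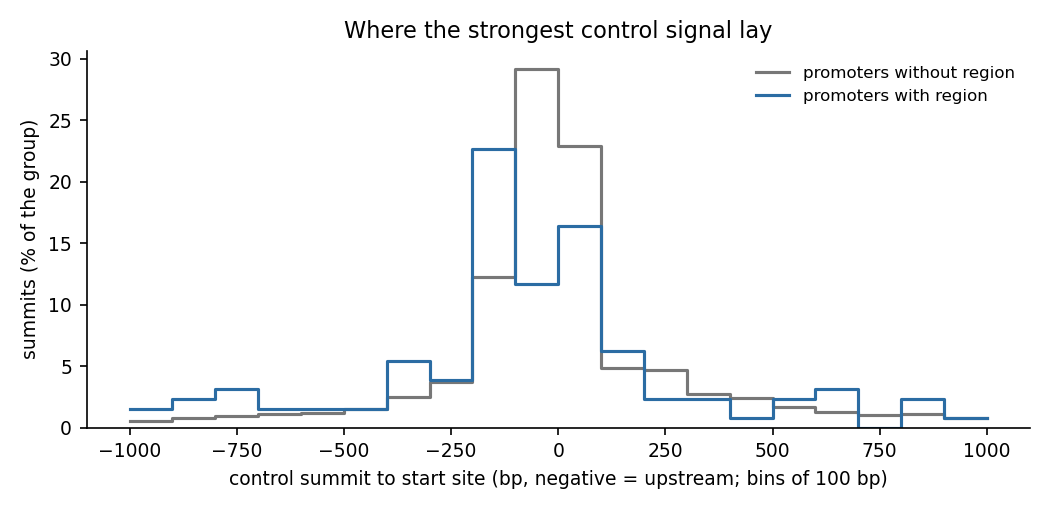
Distance of the control summit from the start site, in bins of 100 bp from 1000 bp upstream (negative) to 1000 bp downstream, as a percentage of the 128 promoters with a region (blue) and the 12614 without (grey). The profile with a region is highest at −200 to −100 bp, with 22.7%, and the one without at −100 to 0 bp, with 29.2%. The medians are −75.5 bp (−112 to 0) and −14 bp (−17 to −12). In the 83 single-copy promoters with a region the median is −95 bp (−142 to 8). Both wide intervals hold −14 bp, so no shift is read from the profiles. The 128 include 13 promoters of the interferon-zeta cluster, whose sequence is repeated.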

How the data were processed

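The ATAC-seq libraries had been trimmed with NGmerge, aligned to mm10 with Bowtie2 (up to 10 alignments kept per read) and SAMtools, and called with Genrich in ATAC-seq mode, which centres intervals on cut sites, without PCR duplicates and the mitochondrial chromosome. Control peaks were called from both control libraries together, with the genome size as background. AP-2-dependent regions were called from both control libraries with both EDKO libraries as background. The deposited columns used are a score (area under the curve, the summed −log10 p above the threshold, and a second score capped at 1000), the −log10 p-value at the summit, not adjusted, and the summit offset in bp. No read counts are in these files. The study's methods give 1 approximate sequencing depth for all libraries, and the number of reads behind each interval is unknown.

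Start sites were those of 1 principal transcript for each protein-coding gene of GENCODE release M21, and sequence came from the RefSeq copy of GRCm38, whose chromosome lengths were checked against the annotation. Overlaps, distances, strings and copy numbers (31-base words, reference genome) were computed with Python 3.11.15 scripts (numpy, pandas, numba), tested on simulated intervals. Strings were searched within 100 bp of a summit, and CpG content in 500 bp. Named promoters were those with the 15 largest regions among single-copy peaks, list genes with a region, the 10 strongest without, those at the distance limit, and markers. Some items that the rule names are not reported here. Others are said to be named after their values were seen. Promoters and gene lists were chosen with earlier results of these data known. Chromosomes X and Y were not analysed here.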

Additional observations from a re-analysis of the deposited data

How the results depend on the processing

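Of 94 values recomputed under alternative settings for 11 results, 55 stayed within the interval of the reported value, or within 1.5 times for the count of promoters, and 39 moved beyond it. The number of open promoters was among those that stayed. With the centre within 500 bp, the share of genes with an open promoter was 56.7%, and promoters without a region had a median summit value of 9.51 and a CpG ratio of 0.784. With 2 kb these were 67.7%, 8.75 and 0.744, and GCCNNNGGC was near 21.1% of summits without a region. With start sites of all coding transcripts, 67.9% of genes were open, the CpG ratio was 0.631 with and 0.752 without a region, and the summit value without was 8.92. With control areas of at least 500 the values were 61.9%, 9.54 and 0.786. With region areas of at least 500, 0.416% of promoters held a region, with a summit value of 13.1, a CpG ratio of 0.735, GCCNNNGGC in 7.55% and further regions for 62.7% of genes with and 9.0% without. Requiring 50% of both intervals left 0.118%, with a summit value of 5.96, a CpG ratio of 0.179 and further regions for 46.7% and 23.9%. That summit value is below the one of promoters without a region, and its interval, 4.75 to 13.1, spans it. Single-copy peaks gave 0.753%, 63.3% of genes open, 10.9 and further regions for 45.3%. Leaving out histone genes too, an alternative added after seeing the data, gave 0.667%, 63.0%, 10.4, a CpG ratio of 0.620 and 33.3%. The degenerate string was near 19.7% of summits without a region, and over whole peaks GCCNNNGGC was in 78.1% with and 64.4% without. Whole peaks with a region were wider, with medians of 1895.5 and 1327 bp, and so offered more sequence to match. A 250 kb limit gave 73.6% and 47.2%. The cause of these shifts was not tested where the setting does not itself fix it. No paired analysis was possible because the libraries of each genotype had been combined before calling, which also leaves no library to leave out. Limits: the number of reads behind each interval is unknown, a promoter without a region may have lost less accessibility than could be called, and areas from the peak list and the region list are on different backgrounds.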

Other observations

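Zinc finger genes of the Zfp family had an open promoter at 342 of 385 loci, including 71 of 109 with a low-CpG start site. Their median summit value was 9.48, and 5 of them had a promoter that overlapped an AP-2-dependent region, 1.30%, against 0.714% of all genes. No conclusion is drawn from this small count. At Zfp433, with 3 copies, the area was 1360 and the region held an AP-2 string that the neighbouring Gm32687, with an area of 1206, carried in the same position 177 bp upstream. Zfp991 and Zfp993 had 4 copies and areas of 376 and 220. Zfp456 and Zfp609 were single copy, with areas of 318 and 253.

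A window at the region summit of Ripk2, 86 bp upstream of the start site, was repetitive within itself like the one between B3galt6 and Sdf4, with 81.6% of bases equal to the base 32 positions further on. Its area was 347. Both promoters counted as single copy by 31-base words. By chromosome, the share of open promoters that overlapped a region ran from 0.296% on chromosome 18 to 2.96% on chromosome 13, which holds the Hist1 cluster, and 2.30% on chromosome 4, which holds the interferon-zeta cluster.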
